A study of Mus musculus with 2 samples.

Results

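The tumour cells under 20000 UMIs were 285 of the 12309 cell barcodes in the single-cell RNA matrix of a 4T1 tumour treated with the agent under study. UMIs are unique molecular identifiers, each counted as 1 captured transcript. The cells were chosen by a rule on their counts. A barcode had at least 300 genes, under 10% mitochondrial UMIs and under 20000 UMIs. Krt8, Krt18, Krt7 and Epcam together made up at least 0.1% of its UMIs and at least 3 UMIs. Upper limits applied to 4 neutrophil genes (2%), 4 macrophage genes (0.3%) and 3 fibroblast genes (0.5%). Of the 10881 barcodes within the limits on genes, UMIs and mitochondrial share, these cells were 2.62% (95% interval 2.33 to 2.94%). All 285 were in the list of kept cells that the authors deposited for the treated library, and 0 were listed for the control library.

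The study compared subcutaneous 4T1 tumours in mice given PCN, the label of the treated group, with tumours in mice given PBS, a salt solution. The series title and design text call the agent PATCH, and no source used here says what either name stands for. The labels give the genotype of both groups as wild type (WT) and name no transgene. There was 1 library per group, made with 10x Chromium 3′ v3 reagents, and the number of animals behind each library is not given in the sources used here. 4T1 is 1 mouse mammary carcinoma line, grown here under the skin and not in the mammary gland. The matrix was assigned to the PCN library because all 10835 listed PCN barcodes were in it, against 37 of 11643 listed PBS barcodes, of which 33 were in both lists. Counts of the PBS library were not analysed here, and treated and untreated tumours are therefore not compared. All comparisons lie within the PCN library and carry no test, since cells of 1 library are not replicates. Shares have exact Clopper-Pearson and ratios of UMI sums exact conditional 95% intervals, which cover counting error only.

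Carcinoma cells can lie anywhere between an epithelial state, held together by keratins and cadherin junctions, and a mesenchymal state with vimentin and a fibronectin matrix, and many cells carry both programmes at once. Cells far from a vessel stabilise HIF transcription factors, which bind the core sequence ACGTG and switch on genes of glycolysis, glucose uptake, acid handling and vessel growth. Interferons raise the MHC class I pathway, in which the immunoproteasome cuts peptides, the TAP transporter carries them into the endoplasmic reticulum and H2-K1 and H2-D1 with B2m display them to CD8 T cells. Interferon gamma can also switch on MHC class II in tumour cells through the regulator Ciita. 4T1 tumours are known for spontaneous metastasis and for factors such as G-CSF (Csf3) that expand neutrophils.

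The marker genes fitted the label. Of the 6 tumour markers, 4 were used by the rule and are given as a description. Levels are in CPM, the UMIs of a gene summed over the cells of a set and scaled to a common total per set, and 3 sets recur. They are the tumour cells under 20000 UMIs, the 383 tumour barcodes at 20000 UMIs or more that met all other limits (the deep tumour barcodes), and the other 10596 barcodes within the limits, which are mostly myeloid. Krt18 was at 1584 CPM in the tumour cells under 20000 UMIs, 1772 CPM in deep tumour barcodes and 9.53 CPM in the other barcodes. Epcam was at 948, 797 and 8.14 CPM in the same order of sets. Cldn4, a tight junction claudin that the rule did not use, was at 314, 287 and 2.62 CPM. Car9, a HIF-induced carbonic anhydrase also outside the rule, was at 49.4, 28.1 and 2.08 CPM, with 161 UMIs in 93 of the 285 cells. All 8 counted pan-leukocyte genes, all 14 neutrophil genes and all 15 macrophage genes were at least 2-fold lower than in the other barcodes, where 25.7% of the 16481 genes counted were 2-fold lower and 26.8% were 2-fold higher. The rule set limits on some of these genes, so their counts describe the selection.

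**Figure D1:**
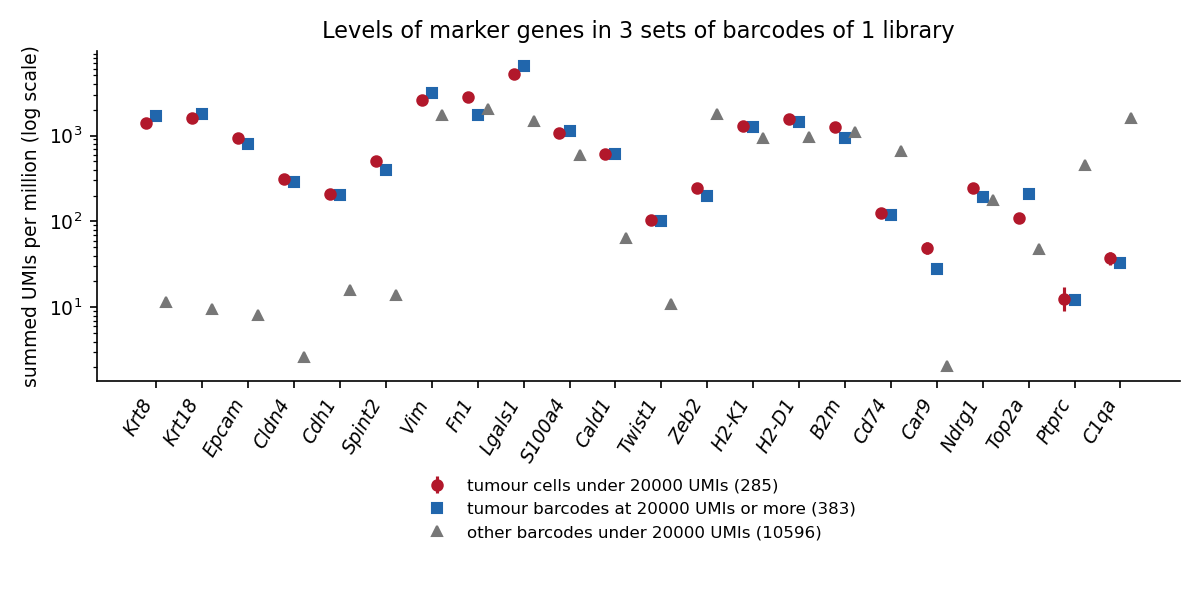
Levels of tumour, mesenchymal, hypoxia, antigen presentation and leukocyte genes in CPM on a log axis, as summed UMIs in the tumour cells under 20000 UMIs (n = 285), the deep tumour barcodes (n = 383) and the other barcodes (n = 10596) of the PCN library. The keratins, Epcam and Cldn4 lie far above the other barcodes in both tumour sets, while Vim is at 2592, 3167 and 1728 CPM in the 3 sets.

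The cells held 512 to 19981 UMIs with a median of 12311, and 373 to 5595 genes with a median of 4004. Their mitochondrial share had a median of 3.90% (0 to 9.76%) and their ribosomal share a median of 14.1% (1.53 to 48.9%). The deep tumour barcodes held 20032 to 129647 UMIs with a median of 31629. At the edges of the rule, 383 barcodes missed it by the UMI limit alone, 26 by the mitochondrial limit alone, the nearest at 10.1%, and 23 by the keratin and Epcam share alone, the nearest at 0.0965%. The lowest keratin and Epcam share inside was 0.101% and the highest 1.33%. Another 22 barcodes missed it by the keratin and Epcam count alone, with 2 UMIs against the lowest inside of 3. The macrophage limit alone removed 8 barcodes, the fibroblast limit alone 2 and the neutrophil limit alone 1. To compare single cells at equal depth, cells were thinned to 2000 UMIs each. This kept 256 of the 285 cells, all 383 deep tumour barcodes and 1277 of 3517 neutrophil barcodes, which are shown as a level of free RNA. Neutrophil barcodes were within the limits on genes, UMIs and mitochondrial share and had at least 2% of UMIs from the 4 neutrophil genes. Barcodes that met both keratin and Epcam limits were not among them. Their low shares of tumour genes are therefore in part set by that choice and may understate free tumour RNA. With the barcodes that thinning left out, the median depths were 12311 UMIs in the 285 tumour cells and 1698 UMIs in the 3517 neutrophil barcodes. The thinned neutrophil barcodes are therefore the deeper ones.

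Vim was detected in most of these cells, which the rule had chosen for keratins and Epcam. A UMI of Vim, which encodes the mesenchymal filament vimentin, was found beside a keratin or Epcam UMI in 233 of the 256 thinned cells (91.0%, 86.8 to 94.2%). The rule fixed the keratin and Epcam side of this count, so it describes the detection of Vim among chosen cells. Cdh1, the gene of E-cadherin, was not used by the rule. Vim was detected in 75 of 81 cells with Cdh1 (92.6%) and in 160 of 175 cells without it (91.4%). Over the 256 cells, the summed UMIs of the epithelial list and of the mesenchymal list had a Spearman rho of −0.02, a description over cells of 1 library that share depth after thinning.

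Vim had a thinned median of 4 UMIs per cell and a highest value of 18, and was detected in 91.8% of the cells (87.7 to 94.9%), 96.6% of deep tumour barcodes and 46.0% of neutrophil barcodes. Neutrophils express Vim themselves, so their share is no empty comparison for it. Cald1, an actin-binding protein of contractile and mesenchymal cells, gives a cleaner one. It was detected in 68.8% of the cells, 63.2% of deep tumour barcodes and 1.80% of neutrophil barcodes. Its level was 603 CPM in the cells, 610 CPM in deep tumour barcodes and 63.5 CPM in the other barcodes. Lgals1, a galectin, had a thinned median of 9 UMIs per cell (highest 54) and was at 5176, 6485 and 1495 CPM in the 3 sets.

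Fn1, the gene of fibronectin, stood out against the deep tumour barcodes. It was at 2838 CPM in the cells and 1714 CPM in deep tumour barcodes, 1.66 times (1.62 to 1.70). Vim was at 0.818 times and Tnc, the matrix protein tenascin C, at 0.728 times. Zeb1, a repressor of E-cadherin, was at 16.3 CPM in the cells and 7.52 CPM in deep tumour barcodes, 2.17 times (1.53 to 3.02), with UMIs in 33 of the 285 cells. After thinning Zeb1 was detected in 3.52% of the cells, 1.31% of deep tumour barcodes and 10.3% of neutrophil barcodes. The part of leukocyte RNA in its ratio was not tested. Against deep tumour barcodes, 1 of 28 counted mesenchymal genes was 2-fold higher, and that was Zeb1, and 0 were 2-fold lower. Of all 12844 genes counted, 3.84% were 2-fold higher and 2.14% were 2-fold lower. The interval lay above 1 for 6 mesenchymal genes and below 1 for 7, while it lay above 1 for 23.6% and below 1 for 13.8% of all genes. The list's median log2 ratio was −0.03, and that of all genes was 0.12.

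The transcription factors of mesenchymal transition were unequal. Twist1 was at 103 CPM in the cells, 101 CPM in deep tumour barcodes and 10.97 CPM in the other barcodes, with UMIs in 164 of the 285 cells. After thinning it was detected in 20.3% of the cells and 0.157% of neutrophil barcodes. Snai1 was at 34.7 CPM in the cells and 34.3 CPM in deep tumour barcodes. Twist2 had 1 UMI over all 285 cells and Snai2 had 0, as had Cdh2, the gene of N-cadherin. Acta2 had 10 UMIs, Tagln 7 and Prrx1 4, genes that mark myofibroblasts and mesenchyme. Zeb2, at 247 CPM, was below the 1790 CPM of the other barcodes, and it is a gene that macrophages express. Cdh1 was detected in 15 of 52 cells with Twist1 (28.8%, 17.1 to 43.1%) and in 66 of 204 cells without it (32.4%, 26.0 to 39.2%), intervals that overlap widely.

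Epithelial genes had unequal levels. Cdh1 was at 206 CPM in the cells, 205 CPM in deep tumour barcodes and 16.0 CPM in the other barcodes. Spint2, an epithelial protease inhibitor, was at 507, 396 and 13.9 CPM. Jup, the junction protein plakoglobin, was at 149 CPM in the cells and 120 CPM in deep tumour barcodes. Grhl2, a transcription factor that keeps epithelial genes on, was at 50.3 CPM in the cells and 38.3 CPM in deep tumour barcodes. Esrp1, an epithelial splicing factor, was at 63.8 CPM in the cells and 48.5 CPM in deep tumour barcodes, and both genes were at 1.32 times. Krt14, a basal keratin, was at 109 CPM in the cells and 194 CPM in deep tumour barcodes, 0.562 times (0.501 to 0.627), with UMIs in 78 cells. Krt17 was at 0.426 times, and Krt5, Krt6a, Cldn3 and Ehf had 0 UMIs in the cells. Of 26 counted epithelial genes, 9 had an interval above 1 and 5 below 1 against deep tumour barcodes, where 23.6% of all genes were above and 13.8% below. The median log2 ratio of the list was 0.08.

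Cycling genes were lower in the cells than in the deep tumour barcodes. Cells with at least 5 UMIs over the S phase and G2/M lists numbered 88 of 256 (34.4%, 28.6 to 40.5%), against 233 of 383 deep tumour barcodes (60.8%, 55.7 to 65.8%), both thinned to 2000 UMIs. Neutrophil barcodes reached this cutoff in 187 of 1277 (14.6%), and 4 cycling genes are also found in them. Without Hmgb2, Slbp, Cks2 and Cenpa the shares were 72 cells (28.1%, 22.7 to 34.1%), 217 deep tumour barcodes (56.7%) and 9 neutrophil barcodes (0.705%). The list sum is a range, not a class. It was 3 or 4 UMIs in 48 cells, 5 or 6 in 15 and at least 10 in 56 (21.9%), against 154 deep tumour barcodes (40.2%) at 10 or more, and 21 cells had 0.

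The share of cycling cells moved with depth before thinning. From shallow to deep it was 11 of 19 cells at 2000 to 5000 UMIs (57.9%, 33.5 to 79.7%) and 18 of 57 at 5000 to 10000 (31.6%, 19.9 to 45.2%). It was 33 of 86 at 10000 to 15000 (38.4%, 28.1 to 49.5%) and 26 of 94 at 15000 to 20000 (27.7%, 18.9 to 37.8%). Past the limit of the rule it was 76 of 172 deep tumour barcodes at 20000 to 30000 (44.2%, 36.6 to 51.9%), 92 of 133 at 30000 to 50000 (69.2%, 60.6 to 76.9%) and 65 of 78 at 50000 or more (83.3%, 73.2 to 90.8%). The share was higher in each deeper bin above 15000 UMIs. A UMI limit of 20000 cuts this range, so the cycling share of the cells is that of the shallower tumour barcodes of the library. Among the 5% of barcodes with the highest doublet scores were 18 of the 285 cells and 32 of the 383 deep tumour barcodes, and the part of doublets in this difference was not tested. The scores come from a Scrublet run that called 0 of 12309 barcodes doublets and so had not worked.

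**Figure D2:**
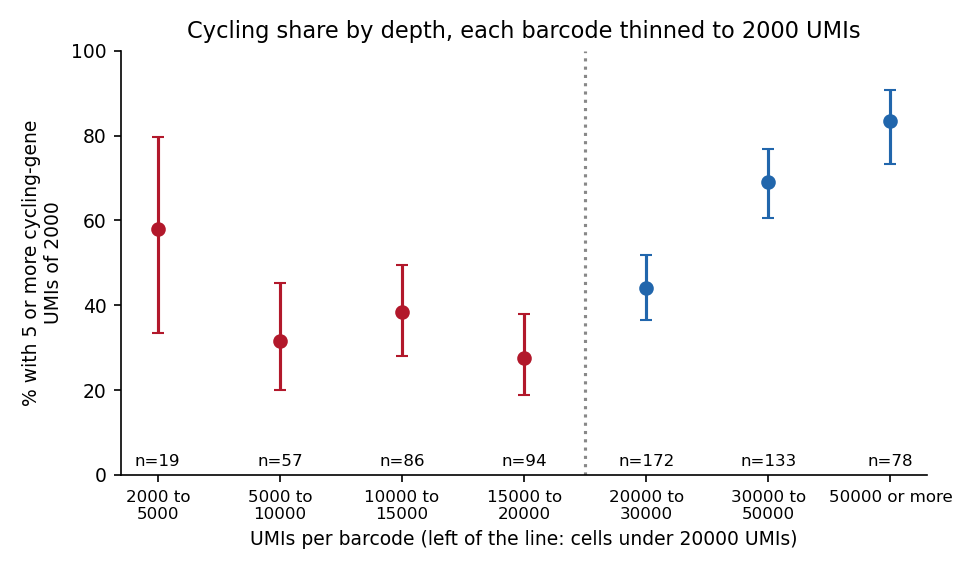
Percent of tumour barcodes with at least 5 UMIs of S phase and G2/M genes after thinning to 2000 UMIs, by their UMIs before thinning, with exact Clopper-Pearson 95% intervals and the number of barcodes in each bin. Left of the dotted line are the tumour cells under 20000 UMIs, at 27.7 to 57.9%, and right of it the deep tumour barcodes, at 44.2, 69.2 and 83.3%.

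The same difference was seen in single cycling genes. Against deep tumour barcodes, 27 of 29 S phase genes and 33 of 35 G2/M genes had an interval below 1, and 0 of either list had one above 1. By the 2-fold rule 9 and 14 were lower, with median log2 ratios of −0.80 and −0.91. Of all genes, 13.8% had an interval below 1, 23.6% had one above 1 and 2.14% were 2-fold lower. Ube2c, a ubiquitin-conjugating enzyme of mitotic exit, was at 64.7 CPM in the cells and 212 CPM in deep tumour barcodes, 0.306 times (0.265 to 0.351). Rrm2, a subunit of ribonucleotide reductase, was at 27.0 CPM in the cells and 86.1 CPM in deep tumour barcodes. Top2a, which untangles DNA before mitosis, was at 110 CPM in the cells and 207 CPM in deep tumour barcodes, 0.531 times (0.474 to 0.591), with UMIs in 76 cells. Pcna, the clamp of DNA polymerases, was at 70.2 CPM in the cells and 123 CPM in deep tumour barcodes, and Mki67 at 52.5 CPM in the cells and 78.0 CPM in deep tumour barcodes. With the mean of per-cell shares in place of summed UMIs, which weights shallow and deep cells alike, log2 ratios were −1.13 in place of −1.71 for Ube2c, −1.21 in place of −1.67 for Rrm2 and −0.59 in place of −0.91 for Top2a. For Plk1, a mitotic kinase, the direction turned, to 0.32 in place of −1.06. The 4 genes whose interval reached 1 were Hjurp (0.859 times, 0.719 to 1.02), Ndc80, Cdca7 and Ccne2.

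Cells below the cycling cutoff carried more fibronectin, osteopontin and secreted inhibitor transcripts. For this split, made after values had been seen, cells with at least 5000 UMIs were used, 77 of them at the cutoff or above (median 12646 UMIs) and 160 below it (median 14068.5 UMIs). Fn1 was at 1405 CPM in cycling cells and 3571 CPM in the others, 0.39 times (0.37 to 0.42). Spp1, the gene of osteopontin, was at 4670 CPM in cycling cells and 9770 CPM in the others, 0.48 times (0.46 to 0.49). Slpi, a protease inhibitor, was at 551 CPM in cycling cells and 1079 CPM in the others. Lcn2, an iron-binding lipocalin, was at 30.4 CPM in cycling cells and 299 CPM in the others, and Ctsd, the lysosomal cathepsin D, at 196 CPM in cycling cells and 416 CPM in the others. Lcn2 is also a neutrophil gene, and the whole neutrophil list made up 0.0741% of UMIs in cycling cells and 0.0875% in the others. Cells rich in leukocyte UMIs were kept in both groups, where the neutrophil list reached 1.80% and 2.20% in single cells. Per thinned cell the secreted factor list had a median of 14 UMIs (3 to 88) in cycling cells and 19.5 (2 to 120) in the others, ranges that overlap. Bcl2, an inhibitor of apoptosis, was at 94.3 CPM in cycling cells and 191 CPM in the others. Of 34 hypoxia genes counted, 1 had an interval above 1 and 14 below, against 15.7% above and 10.6% below among all 9822 genes, and 4 were 2-fold lower and 0 higher, against 4.27% and 5.98%. Of 23 MHC class I genes 4 were above and 4 below, with a median log2 ratio of 0.23, where all genes had 0.07.

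Hypoxia genes were on in part of the cells. Ndrg1, a HIF-induced stress protein, was at 243 CPM in the cells, 194 CPM in deep tumour barcodes and 177 CPM in the other barcodes. After thinning, 24 of 256 cells (9.38%, 6.10 to 13.6%) had at least 2 UMIs of Ndrg1, as had 30 of 383 deep tumour barcodes (7.83%, 5.35 to 10.99%) and 38 of 1277 neutrophil barcodes (2.98%), which express the gene themselves. Over all cells, 8 of 39 hypoxia genes had an interval above 1 and 11 below 1 against deep tumour barcodes, where 23.6% of all genes were above and 13.8% below, with 1 of them 2-fold lower, 0 2-fold higher and a median log2 ratio of 0.04. Car9 was at 1.76 times the deep tumour barcodes (1.45 to 2.11) and Kdm3a, a HIF-induced histone demethylase, at 1.71 times (1.45 to 2.01). Ldha, the lactate dehydrogenase, was at 302 CPM in the cells and 400 CPM in deep tumour barcodes, 0.755 times. Car9 was detected in 7.03% of thinned cells (4.22 to 10.9%), 6.01% of deep tumour barcodes and 0.0783% of neutrophil barcodes.

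HIF binds ACGTG, and the promoters of 3 genes that were higher in the Ndrg1-high cells described next are shown to locate this core. These promoters were picked because they hold the core, so its presence in them is set by that choice. They are the RefSeq sequences of mouse build GRCm38.p6, from 250 bases before to 50 after the gene start, 5′ to 3′ on the strand of the gene, with the matched ACGTG and its reverse complement CACGT in capitals.
Car9, chr4:43506776-43507075, plus strand: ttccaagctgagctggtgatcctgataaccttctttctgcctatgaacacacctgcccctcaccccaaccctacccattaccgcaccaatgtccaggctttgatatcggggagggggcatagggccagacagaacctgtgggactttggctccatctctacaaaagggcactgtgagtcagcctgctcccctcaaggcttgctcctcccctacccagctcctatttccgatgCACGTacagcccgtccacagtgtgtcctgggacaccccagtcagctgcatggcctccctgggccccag
Bnip3, chr7:138909457-138909756, minus strand: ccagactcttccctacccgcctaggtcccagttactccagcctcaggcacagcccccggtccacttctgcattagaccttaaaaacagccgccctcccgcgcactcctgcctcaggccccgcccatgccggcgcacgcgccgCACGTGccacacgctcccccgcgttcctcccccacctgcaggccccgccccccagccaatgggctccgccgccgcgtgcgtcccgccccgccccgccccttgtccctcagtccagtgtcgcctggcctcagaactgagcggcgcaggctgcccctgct
Ero1a, chr14:45318523-45318822, minus strand: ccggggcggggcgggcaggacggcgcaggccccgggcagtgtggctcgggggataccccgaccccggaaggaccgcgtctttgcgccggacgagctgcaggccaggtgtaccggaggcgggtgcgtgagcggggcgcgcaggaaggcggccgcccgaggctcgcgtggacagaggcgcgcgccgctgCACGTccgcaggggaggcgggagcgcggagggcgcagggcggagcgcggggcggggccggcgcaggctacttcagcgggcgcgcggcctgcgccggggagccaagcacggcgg
In Bnip3 the 2 orientations overlap in CACGTG. The search covered both strands. Of the 39 hypoxia genes, 35 had a promoter in the RefSeq table, and Ndrg1 was not among them. The core was held by 20 of these 35 (57.1%), against 6447 of 32851 promoters of the same length in all (19.6%). The list was chosen for hypoxia and glycolysis, with HIF-induced genes in it, so a higher share is in part set by that choice. The promoters in all were not matched to the list in base content, so no conclusion is drawn from the difference. Slc2a1, Pgk1, Ldha, Higd1a and Gapdh held the core, and Vegfa, Pdk1, Gpi1, Aldoa, Pkm and Eno1 did not within this window. A match is a description of the letters and shows no binding.

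Most hypoxia genes were higher together in the Ndrg1-high cells. For this split, chosen after values had been seen, cells with at least 5000 UMIs and under 0.2% pan-leukocyte UMIs were used, 22 with at least 2 thinned UMIs of Ndrg1 (median 11698.5 UMIs) and 167 with 0, the Ndrg1-low cells (median 13677 UMIs). Ndrg1 itself chose the groups and was at 1241 CPM in the Ndrg1-high cells and 121 CPM in the Ndrg1-low cells, of which 104 had a UMI of it before thinning. Another 39 such cells had 1 UMI, and 12 of the cells at or above the cutoff had exactly 2, so the cutoff lies within a continuous range. Of the 31 other hypoxia genes counted, 18 were 2-fold higher and 1 was 2-fold lower, where 4.79% of all 9326 genes were 2-fold higher and 9.95% were 2-fold lower. The interval lay above 1 for 27 of them and below 1 for 0, where it lay above 1 for 6.53% and below 1 for 6.98% of all genes. Their median log2 ratio was 1.06 and that of all genes −0.05. The lower one was Pfkfb4, a regulator of glycolysis, with 1 UMI in the Ndrg1-high cells and 39 in the Ndrg1-low cells, 0.31 times (0.0052 to 1.25).

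Bnip3, a mitophagy receptor, had 58 UMIs in the Ndrg1-high cells, found in 15 of 22, against 49 UMIs in 38 of 167 Ndrg1-low cells. Its level was 212 CPM in Ndrg1-high cells and 21.8 CPM in Ndrg1-low cells, 9.73 times (6.55 to 14.6). Ero1a, an oxidase of disulfide formation in the endoplasmic reticulum, was at 216 CPM, in 16 of 22 Ndrg1-high cells, and at 36.5 CPM, in 56 of 167 Ndrg1-low cells, 5.94 times (4.17 to 8.38). The promoters of both are among those shown above, which were picked for holding the HIF core.

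Angiogenic, transport and glycolytic genes followed the same order. Vegfa, the growth factor for vessels, was at 168 CPM in Ndrg1-high cells and 42.7 CPM in Ndrg1-low cells, 3.97 times (2.71 to 5.66). Slc2a1, the glucose transporter GLUT1, was at 198 CPM in Ndrg1-high cells and 60.02 CPM in Ndrg1-low cells, 3.31 times (2.36 to 4.55). Pdk1, which keeps pyruvate out of mitochondria, was at 5.24 times (2.65 to 9.87). Car9 was found in 13 of 22 Ndrg1-high cells and 61 of 167 Ndrg1-low cells, at 106 CPM and 42.7 CPM, 2.52 times (1.58 to 3.803). Among glycolytic enzymes, Pgk1 was at 535 CPM in Ndrg1-high cells and 175 CPM in Ndrg1-low cells, 3.07 times (2.51 to 3.71), and Gapdh at 1384 CPM in Ndrg1-high cells and 686 CPM in Ndrg1-low cells, 2.02 times (1.80 to 2.26). Ldha was at 476 CPM in Ndrg1-high cells and 266 CPM in Ndrg1-low cells, 1.79 times (1.47 to 2.16), and Ddit4, a stress inhibitor of mTORC1, at 1.44 times (0.997 to 1.99), an interval that reached 1.

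In single cells the order was graded and the groups overlapped. The thinned UMIs of the hypoxia list without Ndrg1 ranged over 4 to 39 with a median of 17 in the 22 Ndrg1-high cells, over 1 to 36 with a median of 9 in the 39 cells with 1 UMI of Ndrg1, and over 1 to 33 with a median of 8 in the 167 cells with 0. In the cells with 1 UMI of Ndrg1, 2 of 30 counted hypoxia genes were 2-fold higher than in cells with 0, with a median log2 ratio of 0.30, where 1.61% of all 9517 genes were 2-fold higher.

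**Figure D3:**
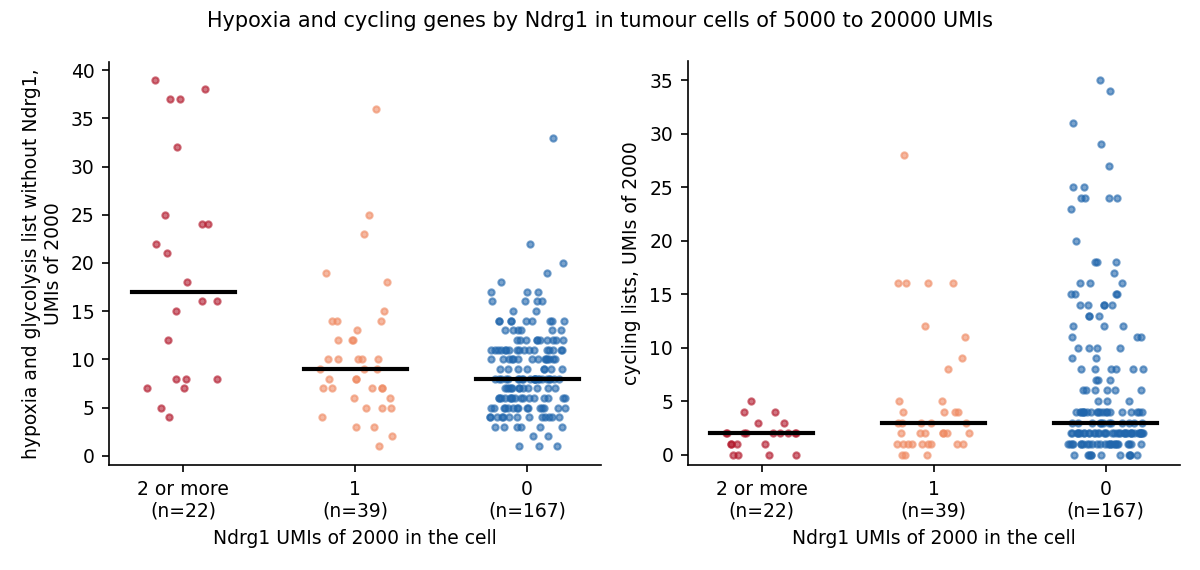
Thinned UMIs of the hypoxia list without Ndrg1 (left) and of the cycling lists (right) in each tumour cell with at least 5000 UMIs and under 0.2% pan-leukocyte UMIs, by its thinned UMIs of Ndrg1. Points are cells and lines are medians, which are 17, 9 and 8 UMIs on the left and 2, 3 and 3 UMIs on the right, where the Ndrg1-high cells reach at most 5 UMIs and the cells with 0 at most 35.

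Ndrg1-high cells had few cycling transcripts, 0 to 5 per thinned cell. Of 32 counted G2/M genes, 29 were 2-fold lower, 20 of them with an interval below 1, and of 24 S phase genes 14 were 2-fold lower, 11 with an interval below 1. Of all 9326 genes, 9.95% were 2-fold lower and 6.98% had an interval below 1. The median log2 ratios of the G2/M and S phase lists were −1.96 and −1.38. Top2a had 3 UMIs in 3 of 22 Ndrg1-high cells and 277 UMIs in 54 of 167 Ndrg1-low cells, 0.10 times (0.018 to 0.26). Cdca8, of the chromosomal passenger complex, had 0 UMIs in Ndrg1-high cells and 92 in Ndrg1-low cells. By the cutoff of 5 cycling UMIs, 1 of 22 Ndrg1-high cells was cycling (4.55%, 0.115 to 22.8%), against 73 of 206 cells with 0 or 1 UMI of Ndrg1 (35.4%, 28.9 to 42.4%). In deep tumour barcodes the shares were 15 of 30 with Ndrg1 at 2 or more (50%, 31.3 to 68.7%) and 218 of 353 without (61.8%, 56.5 to 66.9%), intervals that overlap.

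Other genes higher in the Ndrg1-high cells were a growth factor, a metal-binding protein and a cytokine. Pdgfa, a growth factor for fibroblasts, was at 392 CPM, in 19 of 22 Ndrg1-high cells, and at 116 CPM in Ndrg1-low cells. Mt2, a metallothionein, was at 436 CPM, in 15 of 22 Ndrg1-high cells, and at 71.1 CPM, in 70 of 167 Ndrg1-low cells. Il1a, an alarm cytokine, was at 121 CPM, in 8 of 22 Ndrg1-high cells, and at 14.7 CPM in Ndrg1-low cells. Of 131 UMIs of Mmp13, a collagenase, in the Ndrg1-high cells, 63 were in 1 cell. H2-K1 was at 930 CPM in Ndrg1-high cells and 1308 CPM in Ndrg1-low cells, and H2-D1 at 1066 CPM in Ndrg1-high cells and 1592 CPM in Ndrg1-low cells. Of 23 MHC class I genes 9 had an interval below 1, against 6.98% of all genes, with a median log2 ratio of −0.49. The mitochondrial share had a median of 2.85% in Ndrg1-high cells and 4.29% in Ndrg1-low cells.

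Neutrophil transcripts moved with this split. Of 10 counted neutrophil genes, 6 were 2-fold higher in the Ndrg1-high cells, against 4.79% of all genes. The neutrophil list made up 0.131% of UMIs in Ndrg1-high cells and 0.0538% in Ndrg1-low cells. Per cell the median was 0.0529% in Ndrg1-high cells and 0.0307% in Ndrg1-low cells, and the highest 0.896% and 0.577%. Of the 75 UMIs of G0s2, a neutrophil gene, in Ndrg1-high cells, 63 were in 1 cell, and of the 173 UMIs of Cxcl2, a chemokine for neutrophils, 131 were in 1 cell. The pan-leukocyte list was close in both, at 0.0198% in Ndrg1-high cells and 0.0178% in Ndrg1-low cells. The part of neutrophil RNA in the hypoxia difference was not tested.

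Interferon-induced genes were high in a small share of cells and moved with antigen presentation. The interferon list had 0 to 22 thinned UMIs per cell with a median of 3. At least 8 UMIs were found in 29 of 256 cells (11.3%, 7.72 to 15.9%), 41 of 383 deep tumour barcodes (10.7%, 7.79 to 14.2%) and 393 of 1277 neutrophil barcodes (30.8%), which respond to interferon themselves. Among cells with at least 5000 UMIs and under 0.2% pan-leukocyte UMIs, 6 had exactly 8 UMIs and 3 had 7, while 13 had 6, so the cutoff, chosen after values had been seen, has cells on both sides. It gave 24 interferon-high cells (median 12930 UMIs), set against 129 cells with at most 3 UMIs (median 14295 UMIs). Igtp, an interferon-induced GTPase that chose the groups with the rest of the list, was at 153 CPM in interferon-high cells and 2.27 CPM in interferon-low cells. Iigp1, another such GTPase outside the list, was at 247 CPM in interferon-high cells and 10.8 CPM in interferon-low cells, and Ifi44 at 147 CPM in interferon-high cells and 4.54 CPM in interferon-low cells.

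The MHC class I pathway was higher in the interferon-high cells at nearly every step. It shares no gene with the list that chose the cells. Of 22 counted genes, 19 were 2-fold higher and 0 lower, where 4.58% of all 8758 genes were 2-fold higher and 5.81% were 2-fold lower. The interval lay above 1 for 20 and below 1 for 0, where it lay above 1 for 6.14% and below 1 for 6.33% of all genes. The median log2 ratio was 1.55.

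Genes of peptide supply come first in the pathway. Psmb9, a subunit of the immunoproteasome, was at 193 CPM, in 20 of 24 interferon-high cells, and at 26.6 CPM, in 33 of 129 interferon-low cells, 7.24 times (4.89 to 10.8). Psmb8, another such subunit, was at 309 CPM in interferon-high cells and 94.1 CPM in interferon-low cells, 3.29 times. Tap1, of the peptide transporter, was at 90.5 CPM, in 13 of 24 interferon-high cells, and at 11.3 CPM, in 17 of 129 interferon-low cells, 7.92 times (4.36 to 14.9). Its partner Tap2 was at 2.66 times and Tapbp, the tapasin that loads peptides, at 2.22 times.

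The display molecules and their regulator were higher as well. H2-K1 was at 2849 CPM in interferon-high cells and 911 CPM in interferon-low cells, 3.13 times (2.88 to 3.40). H2-D1 was at 3358 CPM in interferon-high cells and 1158 CPM in interferon-low cells, 2.90 times (2.69 to 3.12). B2m, the light chain, was at 2553 CPM in interferon-high cells and 959 CPM in interferon-low cells, 2.66 times (2.45 to 2.89). Nlrc5, the transactivator of MHC class I genes, was at 137 CPM in interferon-high cells and 33.4 CPM in interferon-low cells, 4.12 times. The chaperones of the endoplasmic reticulum that also serve other proteins moved little, with Calr at 1.22 times (1.01 to 1.47), Pdia3 at 1.15 times (0.959 to 1.37) and Canx at 0.853 times (0.668 to 1.07). H2-K1, H2-D1 and the H2-Q and H2-T genes are near-identical copies in places, so reads may be split among them. Per cell, the thinned UMIs of the MHC class I list ranged over 4 to 54 with a median of 24 in the 24 interferon-high cells and over 1 to 27 with a median of 9 in the 129 interferon-low cells, ranges that overlap.

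**Figure D4:**
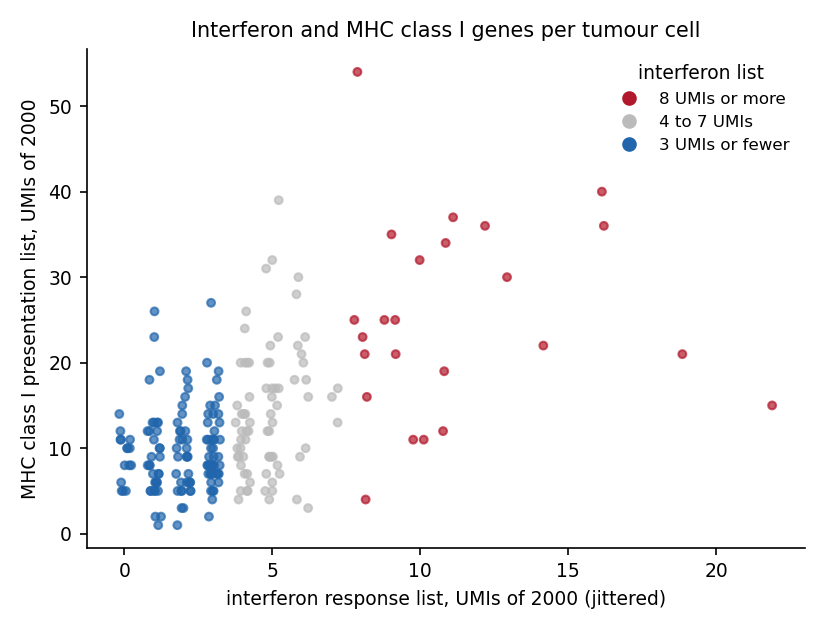
Thinned UMIs of the MHC class I list against those of the interferon list in each of the 228 tumour cells with at least 5000 UMIs and under 0.2% pan-leukocyte UMIs, with points spread slightly sideways. Interferon-high cells (8 UMIs or more) have 4 to 54 UMIs of MHC class I genes and interferon-low cells (3 or fewer) 1 to 27.

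MHC class II genes, usually restricted to antigen presenting cells, were found in many of the interferon-high cells. All 6 counted genes were 2-fold higher, against 4.58% of all genes, with a median log2 ratio of 4.25. Cd74, the invariant chain, was at 602 CPM, in 17 of 24 interferon-high cells with at most 50 UMIs in any of them, and at 23.8 CPM, in 27 of 129 interferon-low cells with at most 7, 25.1 times (18.0 to 36.2). H2-Ab1 was at 153 CPM, in 14 of 24 interferon-high cells, and at 3.97 CPM, in 7 of 129 interferon-low cells. H2-Aa was at 309 CPM in interferon-high cells and 16.4 CPM in interferon-low cells, and H2-Eb1 at 206 CPM in interferon-high cells and 11.3 CPM in interferon-low cells. Ciita had 4 UMIs in interferon-high cells and 0 in interferon-low cells.

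The values of leukocyte transcripts in the same cells were as follows. Ptprc, the leukocyte marker CD45, was in 0 of the 24 interferon-high cells. The pan-leukocyte list made up 0.0122% of UMIs in interferon-high cells and 0.0150% in interferon-low cells. The macrophage list made up 0.0362% in interferon-high cells and 0.0321% in interferon-low cells, and the neutrophil list 0.0368% and 0.0567%. All 7 B cell genes and 12 of 13 T and NK cell genes had 0 UMIs in the interferon-high cells. The MHC class II list made up 0.139% of UMIs in interferon-high cells and 0.00726% in interferon-low cells. Cells at 0.2% or more pan-leukocyte UMIs had been left out of both groups, so low leukocyte shares are in part set by that limit, and the part of leukocyte RNA in the class II difference was not tested.

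Cd274, the gene of the checkpoint ligand PD-L1, had 42 UMIs in interferon-high cells (131 CPM) and 12 in interferon-low cells (6.80 CPM). It was found in 7 of 24 interferon-high cells, and 24 of the 42 UMIs were in 1 cell. Over all tumour cells under 20000 UMIs Cd274 was at 30.1 CPM, against 27.7 CPM in deep tumour barcodes and 253 CPM in the other barcodes. Nt5e, the ectoenzyme CD73 that makes adenosine, was at 455 CPM in the cells, 300 CPM in deep tumour barcodes and 69.9 CPM in the other barcodes, 1.51 times the deep ones. Cd47, the signal against phagocytosis, was at 377, 311 and 444 CPM.

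Over all the cells the class I genes lay close to the deep tumour barcodes. H2-D1 was at 1568 CPM in the cells, 1455 CPM in deep tumour barcodes and 970 CPM in the other barcodes, and H2-K1 at 1289, 1244 and 944 CPM. B2m was at 1240 CPM in the cells and 943 CPM in deep tumour barcodes, 1.32 times. Of 23 counted class I genes, 8 had an interval above 1 and 5 below 1, against the same 23.6% and 13.8% of all genes, with a median log2 ratio of 0.04. Nlrc5 was at 51.8 CPM in the cells and 29.7 CPM in deep tumour barcodes. Of 28 interferon-induced genes, 2 had an interval above 1 and 10 below 1, with a median log2 ratio of −0.14, where 23.6% of all genes were above and 13.8% below. Ifit3, an antiviral protein, was at 7.05 CPM in the cells and 18.0 CPM in deep tumour barcodes. Cxcl10, a chemokine for T cells, had 15 UMIs in the cells and was at 4.601 CPM against 38.0 CPM in deep tumour barcodes.

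Few cells were both Ndrg1-high and interferon-high, and both states are themselves rare. Of the 228 thinned cells with at least 5000 UMIs and under 0.2% pan-leukocyte UMIs, 22 were Ndrg1-high, 24 were interferon-high and 0 were both. This allows a share of up to 1.32% as 3 counts of the total, and up to 1.60% by the Clopper-Pearson interval. With the leukocyte-rich cells 1 of 237 was both. In deep tumour barcodes 6 of 383 were both, where 30 were Ndrg1-high and 41 interferon-high. With states this rare, few cells in both would be seen even if the states were unrelated. Whether they exclude each other was not tested. Ndrg1 was at 65.5 CPM in interferon-high cells and 291 CPM in interferon-low cells. Of 31 counted hypoxia genes 2 had an interval above 1 and 8 below 1 in the interferon-high cells. Of all 8758 genes, 6.14% were above and 6.33% below. By the cutoff of 5 cycling UMIs, 8 of 24 interferon-high cells were cycling (33.3%, 15.6 to 55.3%) and 66 of 204 of the rest (32.4%). Of 28 counted G2/M genes 6 had an interval above 1 and 3 below 1 against interferon-low cells. The shares of all genes were again 6.14% above and 6.33% below. Top2a was above, with 74 UMIs in 9 of 24 interferon-high cells, 29 of them in 1 cell, and 110 UMIs in 33 of 129 interferon-low cells. Over the 256 thinned cells, the MHC class I and interferon lists had a Spearman rho of 0.44 and the secreted factor and protease lists 0.49, and all other pairs of lists lay within 0.27 of 0.

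Cells with Twist1, a transcription factor of mesenchymal transition, were higher in hypoxia genes and not in mesenchymal genes. For this split, chosen after values had been seen, the 50 cells with at least 5000 UMIs and a thinned UMI of Twist1 (median 15176.5 UMIs) were set against the 187 without (median 12842 UMIs). Of 34 counted hypoxia genes 23 had an interval above 1 and 0 below 1, with a median log2 ratio of 0.41, where 4.18% of all 9822 genes had one above 1 and 4.92% below, and the median of all genes was −0.02. By the 2-fold rule 4 were higher and 0 lower, against 1.42% and 3.16% of all genes. Bnip3 was at 82.9 CPM in Twist1-positive cells and 28.0 CPM in the others, 2.96 times (2.06 to 4.24), and Ero1a at 125 CPM in Twist1-positive cells and 44.9 CPM in the others, 2.78 times (2.08 to 3.70). Of 23 mesenchymal genes 2 had an interval above 1 and 5 below 1, with a median of −0.10. Nrg1, a ligand of ERBB receptors, was at 103 CPM in Twist1-positive cells and 36.3 CPM in the others. Cells rich in leukocyte UMIs were kept in this split. The neutrophil list made up 0.0952% of UMIs in Twist1-positive cells and 0.0797% in the others, and its part was not tested. Per cell its median was 0.0317% in Twist1-positive cells and 0.0335% in the others, and its highest value 2.20% and 1.80%. Per thinned cell the hypoxia list had a median of 10.5 UMIs (2 to 46) in Twist1-positive cells and 9 (1 to 42) in the others, ranges that overlap.

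The secreted factors included matrix proteins, EGF family ligands and myeloid growth factors. Spp1 was at 8114 CPM in the cells, 4978 CPM in deep tumour barcodes and 4756 CPM in the other barcodes, 1.63 times the deep ones (1.61 to 1.65). It had the highest variance over mean of all genes among thinned cells, at 20.5, with a median of 10 UMIs and a highest value of 110. Hbegf, a ligand of EGFR, was at 387 CPM in the cells, 478 CPM in deep tumour barcodes and 74.5 CPM in the other barcodes. Tgfa, another such ligand, was at 102, 85.8 and 0.972 CPM. Pthlh, the hormone-like peptide by which breast tumours act on bone, was at 138, 141 and 1.02 CPM.

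Myeloid growth factors were spread over several genes. Csf3 was at 86.8 CPM in the cells, 85.6 CPM in deep tumour barcodes and 11.8 CPM in the other barcodes. Csf1, the macrophage growth factor, was at 78.2 CPM in the cells and 59.0 CPM in deep tumour barcodes, and Il34, the other ligand of its receptor, was at 50.6 CPM, 33.4 CPM and, in the other barcodes, 2.71 CPM. Tslp, an epithelial cytokine, was at 109, 73.2 and 2.22 CPM, 1.49 times the deep ones. Cxcl1, a chemokine for neutrophils, was at 170 CPM in the cells and 300 CPM in deep tumour barcodes, 0.567 times. Over the secreted list 8 of 27 genes had an interval above 1 and 9 below 1 against deep tumour barcodes, where 23.6% of all genes were above and 13.8% below. Of the neutrophil list 7 of 13 counted genes had an interval above 1 in the same comparison and of the pan-leukocyte list 4 of 8. The proteases and their inhibitors included Ctsl, at 1684, 1427 and 1650 CPM in the 3 sets, and Slpi, at 901, 633 and 211 CPM.

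Growth factor receptors leaned higher than in deep tumour barcodes. Of 16 counted, 10 had an interval above 1 and 0 below 1, with a median log2 ratio of 0.40, where 23.6% of all genes were above, 13.8% below and their median was 0.12. Insr, the insulin receptor, was at 144 CPM in the cells, 83.7 CPM in deep tumour barcodes and 34.4 CPM in the other barcodes, 1.72 times the deep ones (1.54 to 1.91). Igf1r was at 633, 487 and 375 CPM, and Egfr at 23.004 CPM in the cells and 12.6 CPM in deep tumour barcodes. Esr1, the oestrogen receptor, was at 51.5, 38.2 and 15.3 CPM. Pgr and Prlr, the receptors of progesterone and prolactin, had 0 UMIs in the cells. Of lineage genes, Sox9, of mammary progenitors, was at 279 CPM in the cells, 282 CPM in deep tumour barcodes and 2.78 CPM in the other barcodes, and Gata3, a luminal transcription factor, at 161, 137 and 5.31 CPM. Trp63, a basal factor, had 1 UMI, and Elf5 and Wap, of the secretory lineage, had 0.

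Genes of the p53 and apoptosis list were set against deep tumour barcodes, with 3 of 17 intervals above 1, 3 below 1, 0 genes past 2-fold and a median log2 ratio of −0.00, where 23.6% of all genes were above and 13.8% below. Bcl2 was at 157 CPM in the cells and 87.7 CPM in deep tumour barcodes, 1.79 times (1.61 to 1.98), and Xiap, a caspase inhibitor, at 1.58 times. Bax, which opens mitochondria in apoptosis, was at 164 CPM in the cells and 230 CPM in deep tumour barcodes, 0.712 times. Of 16 genes of the unfolded protein and integrated stress list, 2 were above and 6 below, with a median log2 ratio of −0.01, and 3 of its enzymes of amino acid synthesis are named. Psat1, of serine synthesis, was at 9.82 CPM in the cells and 30.0 CPM in deep tumour barcodes, Phgdh of the same pathway at 29.8 CPM in the cells and 57.5 CPM in deep tumour barcodes, and Asns, the asparagine synthetase, at 0.540 times. With the mean of per-cell shares the log2 ratio of Psat1 was −0.75 in place of −1.59. Cdkn2a and Cdkn2b had 0 UMIs in the cells. Of 17 immediate early genes, which answer growth signals and tissue handling within minutes, 11 had an interval below 1, against 13.8% of all genes, among them Fos at 1890 CPM in the cells and 2291 CPM in deep tumour barcodes.

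Clustering the 285 cells gave 5 clusters, described by number, whose leading genes define them. Cluster 1 held 86 cells led by Klf4, Klf2, Nr4a1, Egr3, Mmp13, Nos2 and Csf3, with immediate early genes at 1.73% of its UMIs. Klf2 was in 82 and Klf4 in 78 of the 86 cells, while Mmp13 was in 13, with 63 of 148 UMIs in 1 cell, and Nos2 in 6, with 10 of 23 UMIs in 1 cell. Cluster 2 held 73 cells with a high share of the nuclear RNA Malat1 (0.808%) and immediate early genes at 0.384%. Cluster 3 held 65 cells led by Sgo1, Kif4, Ttk and Aurkb, genes of mitosis, with cycling genes at 0.703% of UMIs, and it held 57 of 74 cycling cells with at least 5000 UMIs and under 0.2% pan-leukocyte UMIs. Cluster 4 held 41 shallow cells, with a median of 2059 UMIs. Ribosomal genes made up 27.9%, Malat1 0.0302% and mitochondrial genes 2.67% of its summed UMIs, with a mitochondrial median of 0.947% per cell. Its mesenchymal list made up 2.41% of UMIs, against 1.39 to 1.61% in the others, and its hypoxia list 0.818%, against 0.451 to 0.649%. Its epithelial list was lowest, at 0.1496%, against 0.209 to 0.259%, and its cycling genes were at 0.395%. The part of depth in these shares was not tested. Cluster 5 held 20 cells led by Ccl17, Il1r2, Csf3r, Acod1 and Hdc, myeloid genes.

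The last of these clusters carried leukocyte transcripts beside keratin and Epcam transcripts, which were lower than in the other clusters. Of its 20 cells 10 had at least 0.2% pan-leukocyte UMIs, of 11 such cells in all, and 12 were among the 18 cells with the highest 5% of doublet scores. These scores come from the Scrublet run that called 0 barcodes doublets and so had not worked. Neutrophil genes made up 0.593% of its UMIs, against 0.0240 to 0.0526% in the other 4 clusters. Its keratins and Epcam stood at 0.326%, against 0.372 to 0.554% in the others, and its epithelial list at 0.209%, against 0.1496 to 0.259%. Ccl17, the gene with the largest ratio to deep tumour barcodes, had 80 UMIs in 3 cells, 48 of them in 1 cell, and its log2 ratio was −1.86 without the leukocyte-rich cells. That value lies under the minimum of 20 UMIs and rests on the added 0.5 counts. No UMI was left in the cells, and deep tumour barcodes held 8. The cell with 48 UMIs of Ccl17 also held 76 of 262 UMIs of H2-Ea, 72 of 214 of H2-Eb1 and 58 of 413 of Cd74, and 0 of Krt8 and of Krt18. These values are given beside the results, and the part of mixed droplets was not tested. The comparisons by cycling and by Twist1 above keep the leukocyte-rich cells. Those of Ndrg1-high and interferon-high cells leave out the leukocyte-rich cells. With them, 17 of the hypoxia genes were 2-fold higher in 24 Ndrg1-high cells, against 4.74% of all genes, with a median log2 ratio of 1.02.

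**Figure D5:**
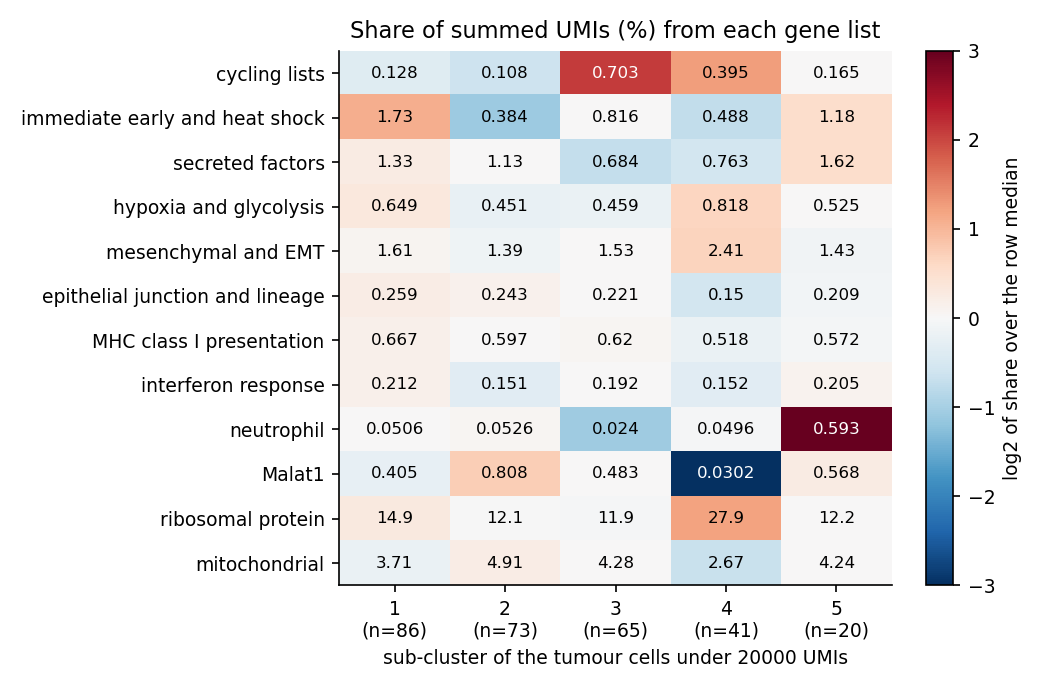
Summed share of UMIs (%) of gene lists and of Malat1, ribosomal and mitochondrial genes in each of the 5 clusters of tumour cells under 20000 UMIs (n = 86, 73, 65, 41 and 20), with colour for the log2 of the share over its row's median. Cycling genes peak in cluster 3, immediate early genes in cluster 1, ribosomal genes in cluster 4 and neutrophil genes in cluster 5.

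Neither the Ndrg1-high nor the interferon-high cells formed a cluster of their own. The 22 Ndrg1-high cells lay 14 in cluster 1, 5 in cluster 2 and 1 each in clusters 3, 4 and 5. The 24 interferon-high cells lay 12 in cluster 1, 4 in cluster 2 and 8 in cluster 3. Both counts cover only cells with at least 5000 UMIs and under 0.2% pan-leukocyte UMIs. Cluster 4, with a median of 2059 UMIs, and cluster 5, with 10 of 20 cells at 0.2% or more, are thus covered in part only. At a finer clustering with 7 clusters, clusters 4 and 5 stayed whole, with 41 and 20 cells, and the other 3 were divided.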

How the data were processed

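RNA of 1 PCN and 1 PBS library of subcutaneous 4T1 tumours was measured with Chromium 3′ v3 chemistry, per the labels' protocols. The values used were deposited as raw UMI counts per gene and barcode, and per the file headers they were made with Cell Ranger 8.0.1. The submitters' processing notes also name STAR. Genome build and annotation: not given in the sources used here. Genes carry the symbols of the deposited gene table. The authors also deposited a list of kept cells with their library. The matrix held 33696 genes and 96873409 UMIs, 3260247 of them in the 285 cells and 14758375 in the deep tumour barcodes.

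The members of the set, the 25 gene lists (462 genes) and the cutoffs were chosen with earlier results of these data known. The cutoffs on Ndrg1, interferon and Twist1 UMIs and the split by cycling were chosen after values had been seen. With 1 library there was no test. UMIs were summed over cells and scaled to CPM. Ratios used genes with at least 20 UMIs over both sets, with 0.5 counts added to each sum for log2 values, and a gene was called higher or lower past 2-fold, or where its exact 95% interval excluded 1. Since sums weight deep cells more, the mean of per-cell shares was an alternative. Cells were thinned at random to 2000 UMIs for per-cell values. Free RNA was not subtracted, and neutrophil barcodes, chosen without those that met both keratin and Epcam limits, are shown as a level of it. A 3′ library gives no reading of splice forms, and levels were compared within a gene. The symbols Aldoa and Ddit3 stand on 2 gene IDs each, and the ID with more UMIs in the matrix was used.

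Named genes were any list gene with its level, per list those with most UMIs or the largest ratio with at least 50 UMIs, the 10 largest ratios of each comparison, the 10 genes of highest variance over mean and the 10 leading genes of each cluster with at least 20 UMIs. Genes named in the splits were picked from these after their values had been seen. Clusters used 1500 variable genes found in at least 5 cells, counts scaled to 10000, 15 components, 15 neighbours and the Leiden method at resolution 0.4, with 0.7 as an alternative. Scrublet called 0 of 12309 barcodes and so had not worked, and leaving out the highest 5% of scores was an alternative. Others changed the limits of the rule, the thinning and the minimum count. Promoters came from RefSeq (GRCm38.p6). Steps were tested on simulated data. Python 3.11.15, numpy 2.4.6, scipy 1.17.1, scanpy 1.11.5, leidenalg 0.10.2 and matplotlib 3.10.9 were used. Some list genes are not reported here.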

Additional observations from a re-analysis of the deposited data

How the results depend on the processing

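Of the values that answer a comparison, 96 moved by less than their interval or by less than 1.5 times for counts, under the alternatives run, and 8 did not. The cycling share was 28.1% in place of 34.4% without Hmgb2, Slbp, Cks2 and Cenpa, and the Vim share 85.2% in place of 91.8% at 1000 UMIs per cell. The MHC class I median log2 ratio was −0.020 in place of 0.042 with a mitochondrial limit of 5%. The mesenchymal median was 0.067 with a keratin and Epcam share of at least 0.2% and 0.025 with the limits on other cell types halved, in place of −0.032. Genes 2-fold higher than in deep tumour barcodes numbered 224 in place of 493 at 50 UMIs or more. Genes 2-fold lower numbered 168 at 50 UMIs or more, and 422 with a mitochondrial limit of 5%, in place of 275. At 50 UMIs fewer genes are tested, and of the others the cause was not tested. Among single genes 447 values stayed within their interval, 38 left it with their direction kept and 5 changed direction. The log2 ratio of Plk1 was 0.32 with the mean of per-cell shares. Without the leukocyte-rich cells that of Il1r2 was −0.12 and that of Ccl17 −1.86. Ccl17 was at −1.89 with such barcodes left out of both sets, and at −0.20 with a keratin and Epcam share of at least 0.2%. The alternatives on leukocyte-rich cells and on the 4 cycling genes were chosen after seeing the data.

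Limits are the single library, its unknown number of animals and the 29 cells under 2000 UMIs that thinning leaves out. The Ndrg1-high and interferon-high cells number 22 and 24, so genes with few UMIs rest on a few cells. Mixed droplets and free RNA were not removed. With 1 library no replicate was left out. No paired analysis was possible because counts of 1 library only were analysed.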

Other observations

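Several shares moved with depth. Malat1, a nuclear RNA, made up 0.169% of UMIs in cells under 2000 UMIs, 0.239% at 2000 to 5000, 0.447% at 5000 to 10000, 0.508% at 10000 to 15000 and 0.587% at 15000 to 20000. In deep tumour barcodes it was 0.472% at 20000 to 30000, 0.333% at 30000 to 50000 and 0.253% above. Mitochondrial UMIs had the same shape, from 1.63% in the shallowest bin to 4.65% at 10000 to 15000 and 2.78% in the deepest. Ribosomal protein genes had the opposite one, at 19.3%, 20.9%, 14.5%, 12.5% and 13.96% in the 5 bins of cells and 14.9%, 16.0% and 17.5% in the 3 bins of deep tumour barcodes.

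A few cells held much of some variable genes. After Spp1, the genes of highest variance over mean included H2-Eb1 at 20.2, found in 7 thinned cells, H2-Ea at 19.0 in 12, Cd74 at 11.1 in 29 and Mmp13 at 10.6 in 7. A single cell held 63 of the 161 UMIs of Mmp13 in all the cells.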
